A study of Mus musculus with 6 samples.

Results

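The fibrillar collagen genes were read in bulk RNA-seq of mouse aorta. They were taken as the rows of the deposited gene count table whose symbol is Col1a1, Col1a2, Col2a1, Col3a1, Col5a1, Col5a2, Col5a3 or Col11a1. All 8 symbols were found, each in 1 row, out of 55335 gene rows. The libraries came from whole aorta of wild-type C57BL/6 mice (c57b6l in the labels), 3 mice at 6 weeks of age (young) and 3 mice at 6 months (aged), with 1 library per mouse and no treatment. The study's methods describe all mice as male and state that fat around the vessel was dissected away. The comparison asks whether the RNA of these chains differs in the aorta between both ages. In a bulk sample, fewer cells of a type and less RNA per cell cannot be told apart.

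Fibrillar collagens are the rope-like proteins that carry the tensile load of the arterial wall. Each molecule is a helix of wound chains, built on a short repeat that begins with glycine, and it is secreted as procollagen, trimmed at both ends, assembled into fibrils and cross-linked. In arteries, type I (chains from Col1a1 and Col1a2) and type III (Col3a1) make the bulk of the fibrils, and type V (Col5a1, Col5a2 and, in some molecules, Col5a3) starts fibrils and limits their width. Type II (Col2a1) and type XI (Col11a1) are best known from cartilage. Smooth muscle cells and adventitial fibroblasts are the main sources of fibrillar collagen in the vessel.

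The genes share an exon structure that shows the repeat directly. In GENCODE M21 (GRCm38), the main coding transcripts have between 51 exons (Col1a1 and Col3a1) and 67 exons (Col5a3 and Col11a1). Of the internal coding exons, 21 of 49 in Col1a1, 24 of 50 in Col1a2, 24 of 49 in Col3a1, 29 of 64 in Col5a1 and 24 of 52 in Col5a2 are exactly 54 bases long. Over all protein-coding genes, 0.736% of internal coding exons have that length. For each of the 5 abundant chains, the first in-frame exon of 54 bases with a glycine codon every 9 bases is shown. The exons were picked by this repeat, the feature that defines the family, so their glycine codons follow from the choice. Capitals mark the glycine codons, which occur every 9 bases, 6 in each exon.
Col1a1, exon 8, chr11:94939904-94939957, plus strand: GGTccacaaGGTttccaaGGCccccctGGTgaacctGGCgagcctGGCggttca
Col1a2, exon 8, chr6:4515481-4515534, plus strand: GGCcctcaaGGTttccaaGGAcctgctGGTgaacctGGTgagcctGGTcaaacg
Col3a1, exon 6, chr1:45325360-45325413, plus strand: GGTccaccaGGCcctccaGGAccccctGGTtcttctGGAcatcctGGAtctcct
Col5a1, exon 15, chr2:27965251-27965304, plus strand: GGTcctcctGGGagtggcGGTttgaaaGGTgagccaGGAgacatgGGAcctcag
Col5a2, exon 6, chr1:45434892-45434945, minus strand: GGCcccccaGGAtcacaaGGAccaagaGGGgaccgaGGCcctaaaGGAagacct
The exons of Col1a1 and Col1a2, whose products join in 1 molecule, have 42 of 54 bases in common. Those of Col1a1 (exon 8) and Col3a1 (exon 6) share 35 of 54, which is fewer, although glycine codons fix many of the positions in each. The exons were not aligned between the genes, so these numbers do not measure how related the chains are. Col3a1 (chromosome 1, 45311538 to 45349706) and Col5a2 (45374321 to 45503282) are neighbours on opposite strands, with 24614 bases between their ends. Short genes overlap Col1a2, Col3a1, Col5a1, Col5a2 and Col5a3 in the annotation, those of Col5a1 and Col5a3 on the opposite strand, and whether reads were counted by strand is not given in the sources used here.

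Total counts lay between 31049632 and 45832185 per library. Some libraries stood apart. Xist, the RNA that silences an X chromosome in female cells, was at 306 CPM (counts relative to library size, after TMM scaling) in young replicate 1 and at most 0.636 CPM in the other libraries, and the Y-linked gene Ddx3y was at 1.09 CPM there against 44.8 to 65.6 elsewhere, which goes against the stated sex of that mouse. Summed over 5 cardiac muscle markers, the same library held 316 CPM against 44.8 to 62.1 in the others. Smooth muscle markers, 6 genes, summed to 32200 to 40100 CPM in young and 28000 to 33300 in aged aorta, and none of the 6 was at 0. Fibroblast markers, 7 genes, summed to 1060 to 1480 CPM in young aorta, and to 5160, 1050 and 3970 CPM in aged replicates 1, 2 and 3, so that aged replicate 2 lay with the young libraries. Brown adipocyte markers, 3 genes, summed to 1810 CPM in aged replicate 2, the lowest library for all 5 abundant chains, and to 66.8 to 524 elsewhere, with Ucp1 alone at 1420 CPM there. Endothelial markers, 6 genes, summed to 1680 CPM in aged replicate 3 and to 326 to 470 elsewhere. Proliferation markers, 5 genes, summed to 3.55 to 8.79 CPM in young and 14.5 to 23.5 in aged aorta. Macrophage markers, 8 genes, summed to 95.9 to 129 CPM in young and 136 to 435 in aged aorta. The part of these differences in the values of the collagen genes was not tested.

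The data show 5 abundant chains and 3 scarce ones in every library, with at least an order of magnitude between them in FPKM, which are counts that the authors divided by gene length and library size. Col3a1 was at 245, 235 and 278 FPKM in young replicates 1, 2 and 3 and at 268, 117 and 149 in aged replicates 1, 2 and 3. Col1a1 was at 132, 167 and 239 FPKM in young and 259, 101 and 158 in aged aorta. Col1a2 was at 140, 183 and 229 FPKM in young and 207, 109 and 140 in aged aorta. Within each of these 3 genes the groups overlapped, and aged replicate 2 was the lowest library. The type V chains followed at lower levels. Col5a1 was at 47.6, 65.1 and 80.8 FPKM in young and 44.7, 33.4 and 35.9 in aged aorta, and Col5a2 at 35.2, 49.8 and 59.0 in young and 40.5, 24.6 and 33.8 in aged aorta. Col5a1 thus did not overlap between the groups on the FPKM scale, with all aged values below the young ones, while Col5a2 overlapped. On that scale, 20.9% of all tested genes were lower in every aged library. Col5a3, the remaining type V chain, stayed between 0.612 and 1.91 FPKM in all 6 libraries. The cartilage chains were near the detection limit: Col11a1 lay between 0.0178 and 0.0354 FPKM, from 10 to 22 counts per library. Col2a1 had 56 counts in young replicate 1, 2 and 4 in young replicates 2 and 3, and 3, 16 and 6 in aged replicates 1, 2 and 3, and was the only chain too low to be tested.

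**Figure D1:**
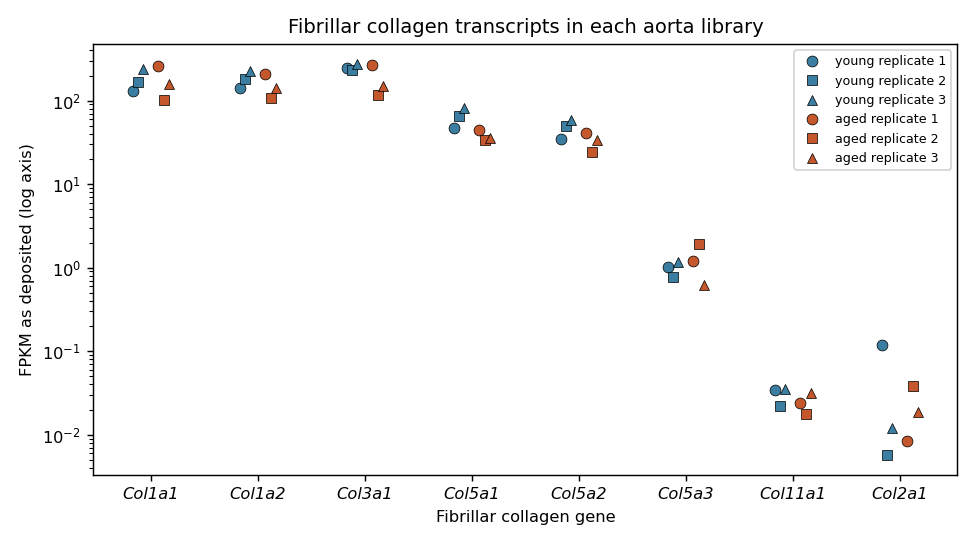
FPKM as deposited (log axis) of the 8 fibrillar collagen genes, 1 point per library, with young libraries in blue and aged in orange and a symbol for each replicate number. Col3a1, Col1a1 and Col1a2 lie between 101 and 278 FPKM, Col5a1 and Col5a2 between 24.6 and 80.8, and the other chains at 1.91 or below.

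The order of the 3 most abundant chains depended on the length by which counts are divided. By FPKM, Col3a1 was first in 5 of 6 libraries and Col1a1 led in aged replicate 3, whereas Col1a1 and Col1a2 changed places between libraries and did not differ beyond their spread (179 ± 54.3 and 184 ± 44.6 FPKM in young aorta, SD, n = 3). With total counts taken as the library size, the FPKM imply a gene length of 13626 bases for Col1a2 and 7205 for Col1a1. That is 1.10 times the summed length of all annotated exons for both, but 2.55 and 1.21 times the length of the main transcript (5348 and 5930 bases). For Col3a1 the implied length was 1.94 times its main transcript. Another library size behind the FPKM would scale all implied lengths alike, and their factor over the summed exons was 1.10 to 1.12 for all 8 chains. As counts per kilobase of the main transcript and relative to total counts, Col1a2 stood at 471 ± 113 in young and 385 ± 129 in aged aorta, beside 492 ± 42.7 and 344 ± 156 for Col3a1 and 219 ± 65.7 and 209 ± 97.4 for Col1a1 (SD, n = 3 each). On that scale Col1a1 was below Col1a2 in every library, at 0.432 to 0.596 of its level, and Col1a2 and Col3a1 were not apart beyond their spread. Col5a1 was above Col5a2 in every library by FPKM and below it in every library per kilobase of transcript, so the order of these type V chains also turned. This scale was chosen after the values were seen. Comparisons between libraries within a gene do not depend on the length.

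Aged aorta did not differ from young aorta in any fibrillar chain at an adjusted p below 0.05 in edgeR's quasi-likelihood test. Of all 16612 genes tested, 0 passed (0%), and the smallest adjusted p among them was 0.189 by edgeR. Before adjustment, 1 of the 7 tested chains (Col5a1) had p below 0.05, beside 10.4% of all genes, 4.82% in the lower direction. Of the 7 chains, 5 had a lower and 2 a higher fitted level in aged aorta, where 47.9% of all genes were lower. Without aged replicate 2, 3 of the 7 were lower. Without young replicate 3 it was 4 of 8, and without aged replicate 1 it was 7 of 8, since Col2a1 passed the filter there. With limma on log2 FPKM, 6 of 7 were lower. The count thus depended on the libraries kept and on the scale. The median log2 fold change (aged over young) of the 7 chains was -0.12, against 0.02 over all genes tested. In CPM, the groups overlapped for all 7 chains, and they did not overlap for 16.5% of all genes.

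Type V chains gave the lowest fold change and the highest among the 7. Col5a1 encodes the chain found in nearly all type V molecules and lies on chromosome 2 from 27886425 to 28039514. It was at 427, 566 and 689 CPM in young replicates 1, 2 and 3 and at 447, 333 and 379 CPM in aged replicates 1, 2 and 3. Aged replicate 1 lay just above young replicate 1, and the other aged libraries below all young libraries. The log2 fold change was -0.54 (standard error 0.22, 95% interval -1.06 to -0.02), which is 0.689 of the young level. The adjusted p from edgeR was 0.469, and the p before adjustment was 0.0443. Without young replicate 1 it was -0.69 (unadjusted p = 0.0126 from edgeR), and without young replicate 3 -0.36 (unadjusted p = 0.167 from edgeR). Without aged replicate 2 it was -0.44 (unadjusted p = 0.11 from edgeR), and without young replicate 2 or aged replicate 3 the unadjusted p was 0.101 and 0.102 from edgeR, so 4 of the 6 libraries were each needed for an unadjusted p below 0.05. Col5a2, its partner chain, was at 353, 485 and 564 CPM in young and 453, 275 and 399 CPM in aged aorta. Its log2 fold change of -0.32 (standard error 0.25, 95% interval -0.91 to 0.28, adjusted p = 0.678 from edgeR) was also negative and did not pass. It was -0.13 without aged replicate 2, -0.15 without young replicate 3 and -0.47 without young replicate 1. Col5a3 was at 7.31, 5.40 and 7.98 CPM in young and 9.66, 15.1 and 5.13 CPM in aged aorta. Aged replicate 2, the lowest library for Col5a1 and Col5a2, was the highest for Col5a3. The log2 fold change of Col5a3 was 0.53 (standard error 0.39, 95% interval -0.39 to 1.45, adjusted p = 0.654 from edgeR), and it was 0.10 without aged replicate 2 and 0.84 without aged replicate 3 (unadjusted p = 0.0303 from edgeR).

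Type I chains had fold changes near 0 with wide intervals, and the sign of both depended on single libraries. Col1a1, on chromosome 11 from 94936224 to 94953042, was at 907, 1110 and 1560 CPM in young and at 1980, 774 and 1280 CPM in aged aorta. The highest and the lowest of the 6 libraries were both aged. Its log2 fold change was 0.17 (standard error 0.36, 95% interval -0.68 to 1.03, adjusted p = 0.882 from edgeR), and it turned to -0.21 without aged replicate 1. It was 0.02 without young replicate 1, and 0.45 and 0.42 without aged replicate 2 and without young replicate 3. Col1a2, on chromosome 6 from 4504814 to 4541544, was at 1810, 2310 and 2830 CPM in young and at 2990, 1570 and 2130 CPM in aged aorta. Its libraries fell in the same places as those of Col1a1, apart from aged replicate 3, which stood below young replicate 2 for Col1a2 and above it for Col1a1. The log2 fold change of Col1a2 was -0.05 (standard error 0.28, 95% interval -0.72 to 0.61, adjusted p = 0.960 from edgeR), and it turned to 0.15 without aged replicate 2 and to 0.12 without young replicate 3. It was -0.20 without young replicate 1 and -0.32 without aged replicate 1. Both intervals include the value of Col5a1.

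Type III collagen is made of the Col3a1 product alone. The gene was at 2510, 2340 and 2720 CPM in young replicates 1, 2 and 3 and at 3070, 1340 and 1810 CPM in aged replicates 1, 2 and 3. The young libraries lay close together, with an SD of 7.57% of their mean against 43.3% in aged aorta, and the aged libraries lay on both sides of them. The log2 fold change was -0.28 (standard error 0.31, 95% interval -1.003 to 0.43, adjusted p = 0.758 from edgeR). It lay between -0.68 without aged replicate 1 (unadjusted p = 0.0179 from edgeR) and -0.05 without aged replicate 2, so its size rested on single aged libraries. Col11a1, of type XI, had a log2 fold change of -0.12 with a 95% interval from -1.46 to 1.23 (adjusted p = 0.956 from edgeR), so that a change was not detectable at this depth. Its sign turned without aged replicate 2 (0.085) and without young replicate 3 (0.0091). Col2a1, with 2 to 56 counts, gave no fold change in the main test, and its 56 counts were in the library that also held the cardiac markers and Xist. Cartilage markers, 11 genes with Matn1 at 0 in every library, summed to 56.8 to 69.2 CPM in young and 55.1 to 124 in aged aorta. Young replicate 1 was at 69.2, of which Comp made 37.0 and Acan 21.2, so the sum says little about the scarcer markers. The 11 did not share a direction, and 6 had a higher mean CPM in aged aorta.

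**Figure D2:**
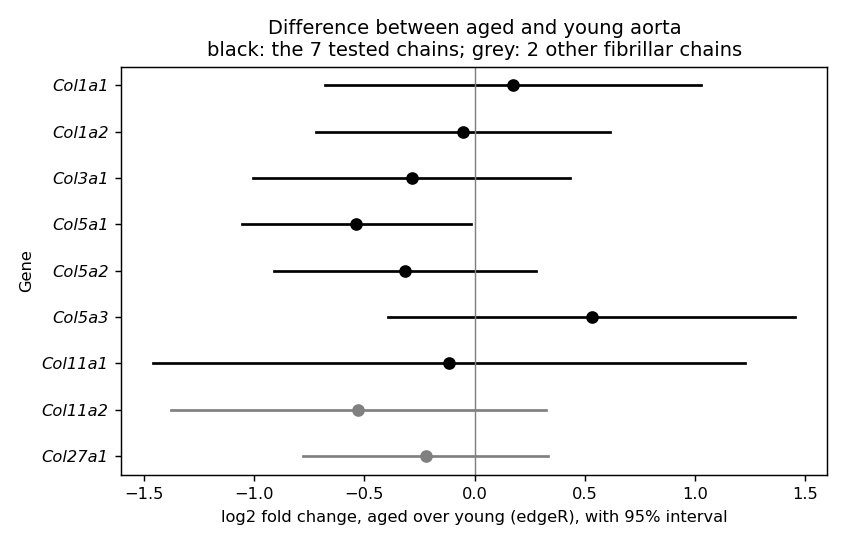
Log2 fold change of aged over young aorta from edgeR (horizontal axis), with 95% intervals, for the 7 tested chains in black and for Col11a2 and Col27a1 in grey. The interval of Col5a1, from -1.06 to -0.02, is the only one that does not include 0.

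Some libraries were high or low for several chains at once. Aged replicate 2 was the lowest library for each of the 5 abundant chains, by 0.46 (Col5a1) to 0.73 (Col3a1) on the log2 scale under the gene's mean over 6 libraries. Aged replicate 1 was the highest for Col1a1, Col1a2 and Col3a1, at 0.71, 0.43 and 0.47 above that mean. Young replicate 3 was the highest for Col5a1 and Col5a2, at 0.59 and 0.46 above it. The 8 chains together took 0.636%, 0.744% and 0.925% of all counts in young replicates 1, 2 and 3 and 0.843%, 0.403% and 0.532% in aged replicates 1, 2 and 3, so the groups overlapped. Genes of the mitochondrial genome took 14.9% to 21.2% of the counts in young and 23.1% to 30.4% in aged aorta. Without those counts the chains took 0.930% ± 0.145 in young and 0.804% ± 0.278 in aged aorta (SD, n = 3 each). Of the counts in the 8 chains, type I took 45.2%, 50.2% and 52.4% in young and 55.5%, 54.5% and 56.9% in aged aorta, so each aged library held a larger type I share than each young one. This share was not tested.

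**Figure D3:**
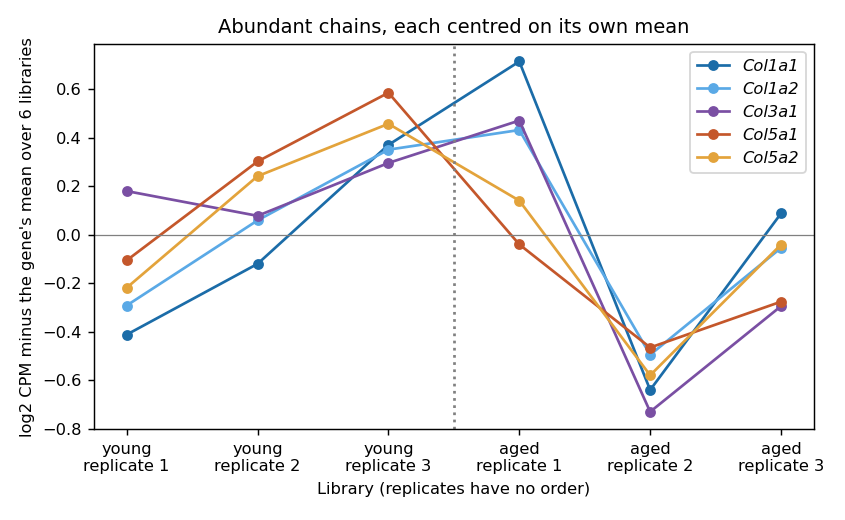
Log2 CPM of Col1a1, Col1a2, Col3a1, Col5a1 and Col5a2 in each library, as the difference from the gene's own mean over the 6 libraries, with lines joining the values of 1 gene. All 5 genes are lowest in aged replicate 2, and Col1a1 in aged replicate 1 is 0.71 above its mean while Col5a1 there is at -0.04.

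Ratios between chains within a library do not depend on how libraries are scaled. Col3a1 to Col1a1, type III over type I, stood at log2 count ratios of 1.47, 1.07 and 0.80 in young replicates 1, 2 and 3 and 0.63, 0.79 and 0.49 in aged replicates 1, 2 and 3. Every aged library was below every young one, by a mean of 0.48 on the log2 scale (difference of aged minus young -0.48, exact two-sided permutation test, p = 0.1, adjusted p = 0.2 over 4 ratios). With 3 mice in each group, no p under 0.1 is possible. Without young replicate 1 the difference was -0.30. The gap between the groups was small, since the highest aged library, at 0.79, almost reached the lowest young one, at 0.80.

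Col5a1 to Col1a1, type V over type I, was at -1.09, -0.97 and -1.18 on the log2 scale in young and at -2.15, -1.22 and -1.76 in aged aorta. These groups did not overlap either, with a difference of -0.63 (exact two-sided permutation test, p = 0.1, adjusted p = 0.2). Aged replicate 2 lay close to the young libraries and aged replicate 1 farthest from them. Of all other tested genes, 5.42% had a ratio to Col1a1 that did not overlap between the groups, and 2.49% had one that was lower in every aged library. Neither test can pass 0.05 in this design. As FPKM, Col5a1 was at 0.360, 0.391 and 0.338 of Col1a1 in young and 0.173, 0.329 and 0.227 in aged aorta.

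The other ratios set chains of the same molecule side by side. Col1a1 to Col1a2 was at log2 count ratios of -0.998, -1.06 and -0.86 in young and -0.60, -1.02 and -0.74 in aged aorta, which overlapped (difference 0.19, exact two-sided permutation test, p = 0.3, adjusted p = 0.3). Col5a2 to Col5a1 held at -0.27, -0.22 and -0.29 in young aorta, an SD of 0.035, and was at 0.02, -0.28 and 0.07 in aged replicates 1, 2 and 3. The difference of 0.20 did not separate the groups, because aged replicate 2 lay among the young libraries (exact two-sided permutation test, p = 0.3, adjusted p = 0.3).

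**Figure D4:**
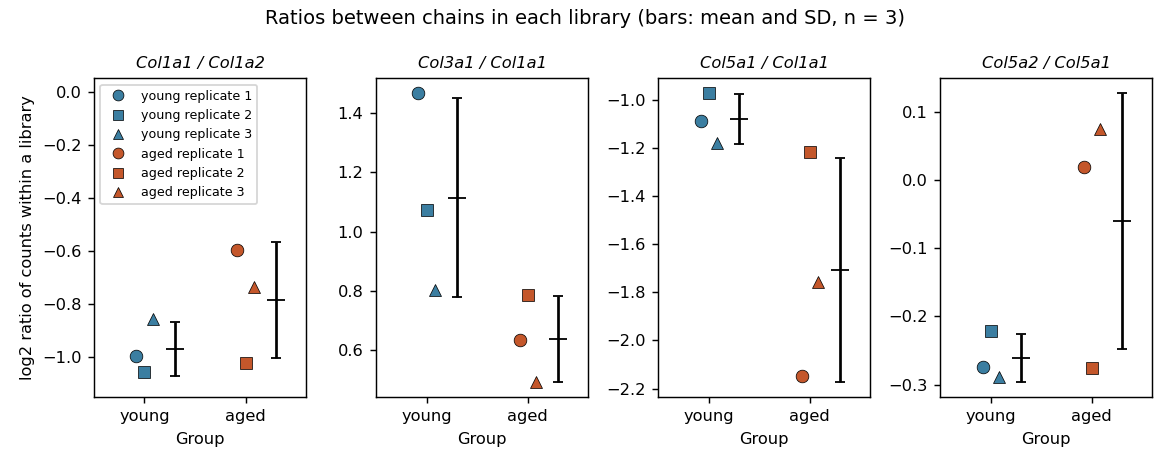
Log2 ratio of counts between 2 chains within each library, for 4 ratios, with the mean and SD of each group (n = 3) beside the points and a separate vertical scale in each panel. Col3a1 to Col1a1 and Col5a1 to Col1a1 are lower in all 3 aged libraries, and in the other 2 panels aged replicate 2 lies among the young libraries.

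Upstream sequence was found for 5 of the 8 chains (Col1a2, Col3a1, Col5a1, Col5a3 and Col11a1) in RefSeq promoters of GRCm38.p6, each with 250 bases before and 50 after the start of the gene. The start used for Col1a2 lies inside the span that GENCODE gives the gene. The windows of Col5a1, the chain with the lowest p, and of Col1a2, with the most CCAAT matches, are shown with capitals for CCAAT (the motif of the trimeric factor NF-Y) and the GC box GGGCGG (bound by Sp1), each searched on both strands.
Col5a1, chr2:27886175-27886474, plus strand: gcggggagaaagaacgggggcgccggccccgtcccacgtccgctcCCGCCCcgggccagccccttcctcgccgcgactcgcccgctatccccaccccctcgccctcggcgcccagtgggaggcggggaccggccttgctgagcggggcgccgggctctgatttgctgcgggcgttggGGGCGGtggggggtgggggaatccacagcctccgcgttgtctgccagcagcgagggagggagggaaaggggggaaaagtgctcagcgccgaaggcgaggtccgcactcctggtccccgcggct
Col1a2, chr6:4505368-4505667, plus strand: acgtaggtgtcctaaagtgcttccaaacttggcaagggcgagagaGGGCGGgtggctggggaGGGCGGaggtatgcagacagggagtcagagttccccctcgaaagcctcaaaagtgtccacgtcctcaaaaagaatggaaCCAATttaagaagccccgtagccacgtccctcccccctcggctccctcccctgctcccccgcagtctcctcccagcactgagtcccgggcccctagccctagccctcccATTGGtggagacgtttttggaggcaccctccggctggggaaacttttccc
The window of Col5a1 held 2 GC boxes and no CCAAT, and that of Col1a2 held 2 of each. Col3a1 held neither, and had the only match to TATAAA. Among all 32841 promoter windows of that length, CCAAT occurred in 37.4%, the GC box in 35.7% and TATAAA in 13.6%. A match is a description of the letters in the window.

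The 3′ untranslated regions share a match to the seed of miR-29, a family of microRNAs known to target collagen transcripts. MicroRNAs were not measured in these libraries. The mature sequences in RefSeq (GRCm38.p6) carry 1 seed, bases 2 to 8, in capitals.
mmu-miR-29a-3p: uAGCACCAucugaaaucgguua
mmu-miR-29b-3p: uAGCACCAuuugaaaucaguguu
mmu-miR-29c-3p: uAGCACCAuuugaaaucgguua
The complementary bases TGGTGCT occurred 13 times in 7 of the 8 chains (GENCODE M21 main transcripts). They occurred in 11.6% of all 3′ untranslated regions with a length between those of the chains (438 to 2498 bases). Col5a1 held 4 matches, Col5a3 held 3, Col11a1 held 2, and Col1a1, Col2a1, Col3a1 and Col5a2 held 1 each. Col1a2 held none of exactly these letters. The match is shown with its flanks for the 4 abundant chains that have one, with the match in capitals, and for Col5a1 it is the second.
Col1a1, match at chr11:94952538-94952544: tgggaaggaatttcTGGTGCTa
Col3a1, match at chr1:45348982-45348988: tcaaaatgtctcaaTGGTGCTa
Col5a1, match at chr2:28038034-28038040: acacttgtctcttgTGGTGCTa
Col5a2, match at chr1:45374966-45374972: ttttcttttaatgaTGGTGCTa

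Genes that make, assemble, bind and break down fibrillar collagen were read from 8 lists. Of 94 genes, 86 had enough counts to be tested, 49 with a higher and 37 with a lower fitted level in aged aorta, and 0 passed an adjusted p of 0.05 by edgeR. At an unadjusted p below 0.05 there were 4 higher and 3 lower, beside 5.56% and 4.82% of all genes. Groups did not overlap for 6 higher and 5 lower genes, against 7.74% and 8.78% of all genes. The median log2 fold change over the lists was 0.09.

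Genes for the synthesis and secretion of procollagen had fold changes on both sides of 0. Of 24 tested, 11 were higher and 13 lower, from -0.89 to 0.87 on the log2 scale with a median of -0.05, and there were 0 at an unadjusted p below 0.05. P4hb, a subunit of prolyl hydroxylase and the most abundant by FPKM, had a log2 fold change of 0.18. Plod2, a lysyl hydroxylase, was at 124, 122 and 150 CPM in young and 122, 84.0 and 97.0 in aged aorta (difference on the log2 scale -0.39, adjusted p = 0.524 by edgeR), with every aged library at or under the young ones. Ppib, a prolyl isomerase, was at 0.48 and Larp6, which binds collagen mRNA, at 0.87, both without passing. Larp6 was at 4.83, 5.09 and 4.37 CPM in young and 11.6, 3.58 and 10.9 CPM in aged aorta. The fibroblast marker sum was likewise highest in aged replicates 1 and 3, and its part was not tested. Of the other fibrillar chains, Col11a2 and Col27a1 were at -0.53 and -0.22 on this scale, and Col24a1 had too few counts to be tested.

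Procollagen processing genes, which trim the ends of the molecule, had positive fold changes in 6 of 7 tested cases, with a median of 0.36. Pcolce, the enhancer of the protease that removes the C-terminal end, was at 54.5, 74.2 and 93.5 CPM in young and 349, 78.0 and 247 CPM in aged aorta. Its log2 fold change was 1.599 (standard error 0.51, adjusted p = 0.390 from edgeR), and it passed with DESeq2 (adjusted p = 0.0405) and without aged replicate 2 (2.01, adjusted p = 0.0415 from edgeR). Pcolce was highest in aged replicates 1 and 3, as was the fibroblast marker sum, and the part of that sum was not tested. The study used PCOLCE to mark fibroblasts in monkey vessels. Adamts2 and Adamts3, which cut the N-terminal end, were at 0.36 and 1.08. Lysyl oxidases, which cross-link fibrils, showed 2 higher and 3 lower of 5, with Lox at -0.33, Loxl1 at 0.11, Loxl2 at -0.38 and Loxl3 at 0.30, all without passing.

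Among 14 partners in fibril assembly, 7 were higher and 7 lower. Dpt, which helps fibrils form, was at 143, 126 and 132 CPM in young and 605, 154 and 498 CPM in aged aorta, and Dcn, a proteoglycan on the fibril surface, at 502, 549 and 839 in young and 2590, 548 and 2020 in aged aorta. Their log2 fold changes of 1.65 and 1.45 (adjusted p = 0.377 and 0.436 from edgeR) came with the fibroblast marker list, to which both belong, and its part was not tested. Without aged replicate 2, Dpt was at 2.05 and Dcn at 1.87, and both passed (adjusted p = 0.0272 and 0.0488 from edgeR), and Dpt also passed with DESeq2 (adjusted p = 0.0145). Col6a3, a chain of the microfibril collagen type VI, was at 252, 445 and 604 CPM in young and 299, 177 and 221 CPM in aged mice, and its log2 fold change was -0.90 (adjusted p = 0.446 by edgeR). Sparc, a collagen-binding chaperone and the most abundant by FPKM, was at -0.24.

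Receptors for collagen were split, 6 higher and 4 lower of 10. Itga10, an integrin subunit for collagen, was at 37.0, 32.4 and 38.7 CPM in young and 15.3, 28.8 and 16.1 CPM in aged aorta, so the groups did not overlap (log2 fold change -0.84, adjusted p = 0.390 from edgeR). It passed without aged replicate 2, at -1.20 (adjusted p = 0.0494 from edgeR). Ddr1 was at -0.33, Mrc2 at 0.44 and Itgb1, the most abundant, at 0.00. The 4 tested enzymes that cleave collagen all had positive fold changes, with a median of 0.73. Mmp2 was at 1.00, Ctsk at 1.21 and Fap at 0.47, with adjusted p of 0.501, 0.537 and 0.715 from edgeR, and Fap turned to -0.19 without aged replicate 1. Mmp2 was at 60.1, 70.2 and 84.3 CPM in young and 220, 55.6 and 152 in aged aorta, and Ctsk at 15.2, 21.7 and 29.5 in young and 94.3, 14.2 and 44.9 in aged aorta. Aged replicate 2 was below all young libraries for Mmp2, Ctsk and Fap, and the fibroblast marker sum was likewise high in aged replicates 1 and 3 and lowest in aged replicate 2, at 1050 CPM. Its part was not tested. The classical collagenase Mmp13 reached at most 0.201 CPM.

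Of 20 genes for transcription factors and signals, 13 were higher and 7 lower. Nfya, a subunit of NF-Y, was at 33.8, 38.8 and 53.6 CPM in young and 27.9, 22.1 and 24.6 CPM in aged aorta, lower in every aged library (log2 fold change -0.76, standard error 0.21, adjusted p = 0.377 from edgeR). Nfyb, its partner, was at 0.30. Runx2, a factor of bone and of calcifying vessels, was at 0.660, 0.747 and 1.02 CPM in young and 3.55, 1.06 and 3.15 CPM in aged aorta (log2 fold change 1.67, adjusted p = 0.391 from edgeR). Its highest libraries, aged replicates 1 and 3, were also those of the fibroblast marker sum, whose part was not tested. Ccn2, listed as Ctgf and induced by TGF-beta, was the most abundant and stood at -0.08.

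**Figure D5:**
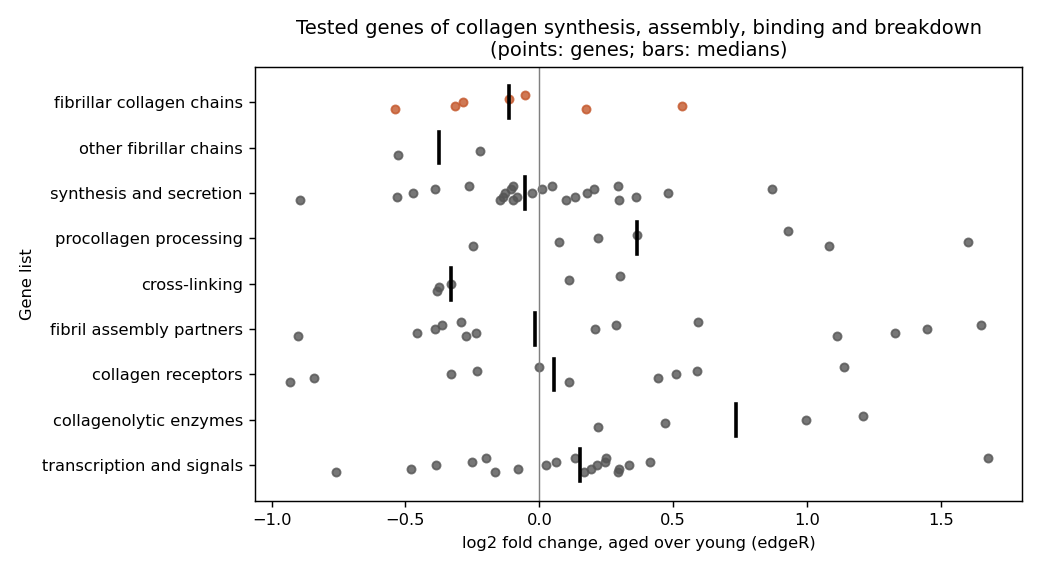
Log2 fold change of aged over young aorta from edgeR (horizontal axis) for each tested gene of the fibrillar chains (orange) and of 8 lists around them (grey), with a bar at each median. The chains lie between -0.54 and 0.53 around a median of -0.12, and the 4 collagen-cleaving enzymes have a median of 0.73.

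The genes most like 3 of the chains over the 6 libraries were found by the root mean square difference of their centred log2 CPM. Nearest to Col1a1 were Adamts2 (0.13), the procollagen protease named above, AI506816 (0.14), Ccdc80 (0.15) and Col16a1 (0.15), a fibril-associated collagen. Nearest to Col5a1 were Map3k10 (0.065), Hspg2 (0.077), Papd7 (0.080) and Klhdc3 (0.083). Hspg2, which encodes the basement membrane proteoglycan perlecan, was at 887, 1080 and 1430 CPM in young and 806, 679 and 784 CPM in aged aorta, so its groups did not overlap. Nearest to Col3a1 were Kat14 (0.10), Dnajc24 (0.12), Scn2b (0.12) and C1galt1c1 (0.13). With 6 libraries and 16612 genes, likeness of this kind is a description only.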

How the data were processed

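RNA of whole aorta was sequenced from 3 young and 3 aged mice, single-ended. The authors deposited read counts per gene, not normalized, and FPKM. The build mm10 is named in the submitters' processing notes, and the aligner, counting tool and annotation are not given in the sources used here. Annotation is from GENCODE M21 (GRCm38).

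Counts were analysed in R 4.3.3 with the quasi-likelihood test of edgeR 4.0.16 after TMM normalization. Genes were kept by filterByExpr, grouped by age, with a minimum of 10 counts and 15 in total. Benjamini-Hochberg adjustment covered every tested gene, and 0.05 was the threshold. Standard errors are the log2 fold change over the square root of F. The edgeR test was checked on simulated counts with the same spread for every gene and no outlying library. That check does not show how the test performs on libraries as uneven as these. Ratios were tested by exact permutation over mice. The depth was 31049632 to 45832185 counts per library. P-values from edgeR set the difference between groups against the spread between mice, which is estimated with help from all tested genes. The permutation p is the share of relabelings of the mice with a difference at least as large.

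Alternatives were RLE size factors, other filters, a replicate block, robust fitting, DESeq2 1.42.0, log2 FPKM plus 1 or plus 0.1 in limma 3.58.1, removal of mitochondrial genes and of libraries. Named are all chains, of each list the most abundant gene by FPKM and those with the 3 smallest p, and the 4 genes nearest to 3 chains. Hspg2 values and Mmp13 were added after their values were seen. Members and lists were chosen with earlier results of these data known.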

Additional observations from a re-analysis of the deposited data

How the results depend on the processing

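The count of 0 fibrillar chains past an adjusted p of 0.05 was the same under all 16 alternatives. The count of 0 genes overall became 338 with DESeq2, and the count of 0 genes in the collagen lists became 2 (Dpt and Pcolce). With 1 library left out these counts lay between 0 and 110 and between 0 and 4, the highest without aged replicate 2, where Dcn, Dpt, Itga10 and Pcolce passed. Without young replicate 1, alone or together with aged replicate 2, both counts were 0. The cause of these shifts was not tested. The log2 fold change of Col5a1 was negative under all 16 alternatives, from -0.74 to -0.36, and at an unadjusted p above 0.05 in edgeR without young replicate 2 or 3 and without aged replicate 2 or 3. With the replicate number as a block it was -0.52 (unadjusted p = 0.0786 from edgeR), and 0 genes were called. Whether same-numbered mice share more than a number is not known. The correlations of their deviations from the group means were 0.079, 0.134 and 0.128. Differently numbered mice were not compared, so these values cannot decide it. Col3a1, Col5a2 and Col5a3 also kept their direction under all 16.

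Col1a1 turned to -0.11 with limma at both pseudocounts, which moved the median of all genes to -0.12 and -0.19, and with 1 library left out it lay between -0.21 and 0.45. Col1a2 lay between -0.32 and 0.15 and Col11a1 between -0.36 and 0.085 with 1 library left out. Without young replicate 1 and aged replicate 2 together, Col1a2 was at 3.12e-05, Col11a1 at 0.19 and Col5a1 at -0.60. The 4 ratios kept their sign under all 9 alternatives. Among these, the ratio of FPKM and the replicate block leave the difference of group means as it is. Only leaving out libraries could therefore change a sign. With 1 library left out, the difference lay from 0.092 to 0.31 (Col1a1 to Col1a2) and from -0.63 to -0.30 (Col3a1 to Col1a1). It lay from -0.87 to -0.41 for Col5a1 to Col1a1 and from 0.13 to 0.31 for Col5a2 to Col5a1. With the replicate number as a block, the ratio differences rested on 3 differences between mice, whose smallest exact p is 0.25.

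Dividing by the main transcript in place of the length behind the FPKM, chosen after the data were seen, moved the median ratio over libraries from 0.995 to 0.475 for Col1a1 to Col1a2, from 1.16 to 1.85 for Col3a1 to Col1a1, from 1.25 to 0.949 for Col3a1 to Col1a2 and from 0.752 to 1.07 for Col5a2 to Col5a1. The summed exon length shows why, since it is 12426 bases for Col1a2 and 6563 for Col1a1. Of the other named genes, P4hb, Loxl1, Itgb1, Fap and Ccn2 changed sign under at least 1 of 16 alternatives, each with a main value between -0.08 and 0.47. Depth limits Col2a1 and Col11a1, with at most 56 and 22 counts.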

Other observations

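The abundant chains were set beside the sum of the 7 fibroblast markers in each library, a measure chosen after the values were seen and not tested. Col1a1 was at 0.859, 0.957 and 1.05 times that sum in young replicates 1, 2 and 3 and at 0.383, 0.741 and 0.323 times in aged replicates 1, 2 and 3. Col3a1 was at 2.38, 2.02 and 1.83 times the sum in young and at 0.594, 1.28 and 0.455 times in aged aorta. Col5a1 was at 0.404, 0.488 and 0.464 times in young and at 0.0865, 0.318 and 0.0955 times in aged aorta. For each of these 3 chains, every aged library was below every young one, with aged replicate 2 nearest to the young libraries. The ratio of CPM to this sum was lower in every aged library for 12.6% of all 16612 tested genes. The sum itself was 1060 to 1480 CPM in young aorta and 5160 and 3970 CPM in aged replicates 1 and 3, so a gene at an equal level in all libraries would also have a lower ratio there. Smooth muscle cells also express these chains, so the ratio is not a level per fibroblast.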
